A study of Mus musculus with 34 samples.

Results

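Integrins, tetraspanins and a set of other leukocyte adhesion molecules were followed in mouse bone-marrow-derived macrophages stimulated with lipopolysaccharide (LPS), the cell-wall component of Gram-negative bacteria that triggers the receptor TLR4. Genes were taken where their symbol begins with Itga, Itgb (leaving out Itgb1bp) or Tspan, or is Icam1, Icam2, Selplg, F11r, Pecam1, Cd44, Cd47, Cd48, Ly9, Cd9, Cd37, Cd53, Cd63, Cd81, Cd82 or Cd151. This gave 46 of the 8252 genes that have a probe set with 1 symbol on the Affymetrix MG-U74Av2 array: 12 integrin alpha chains, 7 integrin beta chains, 18 tetraspanins and 9 other adhesion molecules. The 46 genes had 66 probe sets, 13 of them more than 1, and values are those of the brightest probe set by mean. The test took in the 38 genes whose signal reached 200 on 2 or more arrays: 11 alpha chains, 5 beta chains, 14 tetraspanins and 8 other adhesion molecules. The other 8 (Itga8, Itgb3, Itgb4, Icam2, Tspan5, Tspan6, Tspan8 and Tspan12) fell short of it; their median signals over the 32 arrays were 17.7 to 78.0.

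Macrophages had been grown for 7 days and rested for 1 hr, per the labels. They were IL-10-/-, IL-6-/- or wild type. LPS (100 ng/ml) was given with IL-10 (10 ng/ml) or alone, for 45 or 180 min, and with IL-6 (2 ng/ml) for 45 min. Interleukin 10 (IL-10) is a cytokine that restrains the inflammatory response of macrophages, and interleukin 6 (IL-6) signals through the same transcription factor, STAT3. Each stimulated group had 2 arrays, except IL-6-/- cells with LPS alone, which had 1 array at each time. Resting macrophages had 4 arrays, with no genotype in the labels. The labels name L-cell conditioned medium as the source of the growth factor CSF-1 for the resting cells and mCSF for the stimulated cells, so LPS and growth medium cannot be told apart in a comparison with resting cells. The titles call the replicates biological. The labels describe neither the alleles and strains nor how many mice or cultures the replicates came from, so a p-value here reflects how far arrays of a group differ. Groups follow the titles; the treatment protocols of 14 of the 18 arrays titled with IL-10 or IL-6 name LPS only. Another 2 arrays entered no group, 1 because its title gives no genotype and 1 because its title and treatment protocol name different times.

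As background, integrins are cell-surface receptors made of an alpha and a beta chain. They bind matrix proteins or counter-receptors on other cells, and signals inside the cell switch them between low and high affinity through talin and kindlin. Leukocytes carry the beta 2 integrins LFA-1 (chains Itgal and Itgb2), Mac-1 (Itgam and Itgb2) and CR4 (Itgax and Itgb2), and the beta 1 integrins VLA-4 (Itga4 and Itgb1) and VLA-5 (Itga5 and Itgb1). Tetraspanins are small proteins that span the membrane repeatedly and gather integrins, proteases and immunoglobulin-family receptors into membrane domains. Adhesion proteins are also regulated by shedding and by transport to the surface, which an RNA measurement does not read.

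Deposited signals were on 1 scale, with a 2% trimmed mean between 500.288 and 500.399 on every array. Macrophage genes were bright on all 32 arrays: Lyz2 (lysozyme) had a signal of at least 24200, Csf1r (the CSF-1 receptor) of at least 13160 and Cd68 of at least 10620. Some defining genes of other cells were dim: the T-cell receptor subunit Cd3e stayed at or under 71.5, endothelial Cdh5 at or under 192 and platelet Gp1bb at or under 102. Others on the same marker lists were brighter on some arrays: endothelial Vwf reached 1146, lymphocyte Cd79a 498 and platelet Gp5 245. The dendritic-cell markers Flt3 and Fscn1 reached 1111 and 3905. Whether other cells were present was not tested. Stromal genes differed between stimulated and resting cells: the summed signal of 9 of 9 markers (collagens, Sparc, Lox and others) was 7090 to 13680 on stimulated arrays, against 949 to 3250 on resting arrays. Resting replicate 4 stood apart, with a correlation of 0.863 to 0.885 to the other resting arrays, which had 0.911 to 0.93 among themselves. Probe sets for the deleted genes gave signal in their own knockouts (Il10 1512 to 10596 in IL-10-/- cells, Il6 428 to 8400.2 in IL-6-/- cells). Where these probe sets lie relative to the deleted parts is not given, so they check neither genotype.

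Does LPS change the adhesion genes, and when? In wild-type cells with LPS for 45 min, 6 of 38 adhesion genes rose (Icam1, Itga5, Tspan9, Itgav, Itga7 and Itgb1) and 5 fell (Selplg, Cd37, Ly9, Tspan32 and Itgb2) relative to resting cells. After 180 min 9 rose (Icam1, Itgav, Cd44, Itga5, Cd47, Itga4, Cd82, Tspan9 and Itgb1) and 10 fell (Ly9, Cd48, Selplg, Tspan32, Cd37, Tspan3, Itgb2, Itga6, Tspan4 and Itgb5). A call means an adjusted p under 0.05 in limma, Benjamini-Hochberg over all 8224 probe sets tested. At 45 min 28.9% of the adhesion genes were called, against 16.7% of all probe sets (9% higher and 7.75% lower). At 180 min the shares were 50% of the adhesion genes and 33.8% of all probe sets (14.4% higher and 19.4% lower). The median log2 change of the adhesion genes was 0.02 at 45 min, against 0.03 over all probe sets, and -0.04 at 180 min, against -0.09. In RNA of whole cultures, fewer cells of a type and less RNA per cell cannot be told apart.

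**Figure D1:**
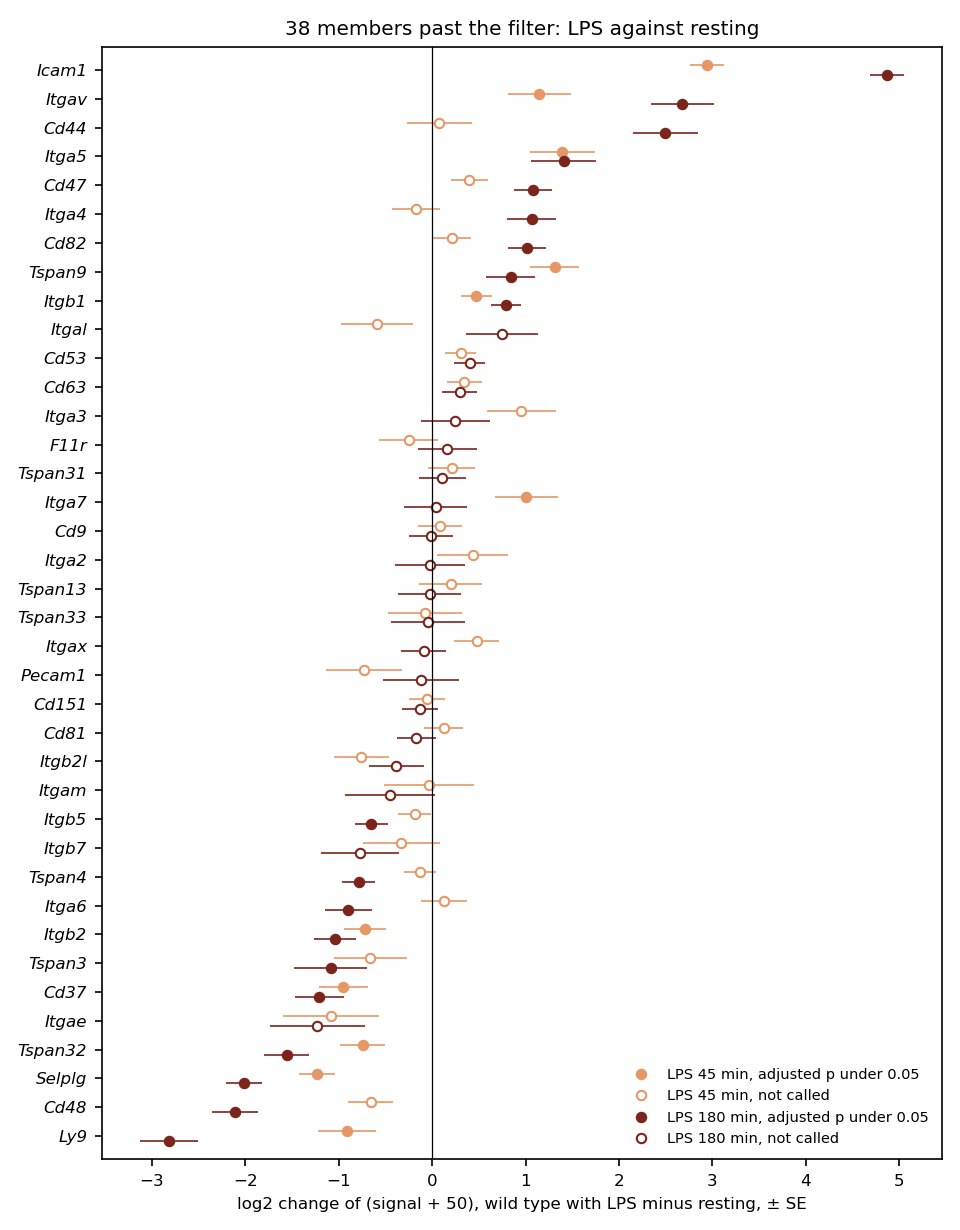
Log2 change of (signal + 50) for each of the 38 adhesion genes, wild-type cells with LPS for 45 min (light) or 180 min (dark) minus resting cells; bars are the standard error and filled points have an adjusted p under 0.05. Icam1, at 2.94 and 4.87, lies farthest to the right, and Ly9, at -0.91 and -2.82, farthest to the left at 180 min.

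Among counter-receptors, Icam1, the ligand of LFA-1 and Mac-1, changed most. Its signal (probe set 96752_at) was 593, 564, 583 and 866 in resting cells, 4905 and 5642 at 45 min and 19556 and 20745 at 180 min. All stimulated arrays lay above all resting arrays, and both 180 min arrays above both 45 min arrays. On the log2 scale of (signal + 50), used for every change here with ± its standard error, Icam1 rose by 2.94 ± 0.18 (adjusted p = 7.37e-12) at 45 min and rose by 4.87 ± 0.18 (adjusted p = 2.02e-16) at 180 min. Cd44, the receptor for hyaluronan, had a later course. Its signal (probe set 103005_s_at) was 1093, 801, 457 and 347 in resting cells, 416 and 1007 at 45 min and 4209.5 and 3249 at 180 min. The 45 min arrays lay within the resting range and the 180 min arrays well above it. The log2 change of Cd44 was 0.08 ± 0.35, adjusted p = 0.911 at 45 min, and it rose by 2.49 ± 0.35 (adjusted p = 4.16e-06) at 180 min. Cd47, which binds the inhibitory receptor SIRP alpha and associates with integrins, had 2958, 2401, 4264 and 2509 in resting cells, 3472 and 4404 at 45 min and 5632 and 7017 at 180 min. It rose by 1.08 ± 0.20 (adjusted p = 0.000172) at 180 min, with both arrays above the resting range.

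Itgav, the alpha V chain of vitronectin-type receptors, was the integrin gene with the largest rise. Its signal (probe set 104386_f_at) was 1072, 3568, 4528 and 3808 in resting cells, 5646 and 7249 at 45 min and 14982 and 22946 at 180 min. The groups did not overlap at either time; resting replicate 1 was the lowest array. Itgav rose by 1.15 ± 0.34 (adjusted p = 0.0212) at 45 min and rose by 2.68 ± 0.34 (adjusted p = 9.18e-07) at 180 min. Another probe set, 98366_at, had a log2 change of 1.71 ± 0.47 at 180 min (adjusted p = 0.00642), and one more, 104385_i_at, one of 0.11 ± 0.65 (0.922). Itga5, the fibronectin-receptor chain, had 32.4, 75.4, 194 and 220.4 in resting cells, 369 and 381 at 45 min and 461 and 310.5 at 180 min. Both LPS groups lay above the resting arrays and overlapped each other. It rose by 1.39 ± 0.35 (adjusted p = 0.00751) at 45 min and rose by 1.41 ± 0.35 (adjusted p = 0.0027) at 180 min. Itgb1, the beta chain that Itga5 and Itga4 share, had 7395, 9316, 8732 and 6574 in resting cells, 10774 and 11299 at 45 min and 11823 and 15972 at 180 min. Its rise was smaller: 0.47 ± 0.16 at 45 min (adjusted p = 0.0459) and 0.79 ± 0.16 at 180 min (adjusted p = 0.000457), with no overlap between the groups.

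Itga4, the VLA-4 chain that binds VCAM-1 and fibronectin, was a late riser. Its signal was 283, 296, 147 and 129.8 in resting cells, 142 and 212 at 45 min and 551 and 416 at 180 min. The 45 min arrays lay within the resting range and the 180 min arrays above it. The log2 change was -0.18 ± 0.26, adjusted p = 0.695 at 45 min, and Itga4 rose by 1.07 ± 0.26 (adjusted p = 0.00235) at 180 min; its other tested probe set gave 1.22 ± 0.26 (0.000611). Itga7, a laminin-receptor chain, was called at 45 min only, with 427, 166, 157 and 238 in resting cells, 501 and 526 at 45 min and 238 and 237 at 180 min. It rose by 1.01 ± 0.34 (adjusted p = 0.0411) at 45 min, and at 180 min its log2 change was 0.04 ± 0.34, adjusted p = 0.949. Itga6, another laminin-receptor chain, had 469, 914, 667 and 611 in resting cells, 765 and 662 at 45 min and 268 and 391 at 180 min. It fell by 0.90 ± 0.25 (adjusted p = 0.00692) at 180 min, both arrays lying under the resting range. Heterodimers of these chains were not measured.

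Itgb2, the chain common to LFA-1, Mac-1 and CR4, had 3072, 2593, 3711 and 2584 in resting cells, 1933 and 1632 at 45 min and 1749 and 1139.9 at 180 min. Every LPS array lay below every resting array. Itgb2 fell by 0.72 ± 0.23 (adjusted p = 0.0321) at 45 min and fell by 1.04 ± 0.23 (adjusted p = 0.000909) at 180 min. Its alpha partners were not called against resting at either time. Itgam had log2 changes of -0.03 ± 0.48, adjusted p = 0.972 at 45 min and -0.45 ± 0.48, adjusted p = 0.513 at 180 min. Itgax had 0.47 ± 0.24, adjusted p = 0.182 and -0.09 ± 0.24, adjusted p = 0.808 at these times. Itgal had -0.59 ± 0.38, adjusted p = 0.306 at 45 min and 0.75 ± 0.38, adjusted p = 0.141 at 180 min. Itgb5, a partner of Itgav, had a signal of 1862 and 1971 at 180 min, against 3895, 2174, 3448 and 2902 in resting cells, and fell by 0.65 ± 0.18 (adjusted p = 0.00583). Itgb7, the partner of Itga4 and Itgae, had 456, 846, 1994 and 547 in resting cells, 744 and 544 at 45 min and 566 and 365 at 180 min, with a wide resting range. Its log2 changes were -0.33 ± 0.42, adjusted p = 0.64 at 45 min and -0.77 ± 0.42, adjusted p = 0.164 at 180 min.

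Ly9, Cd48 and Selplg had the largest falls at 180 min. Ly9 and Cd48 belong to the SLAM family of immunoglobulin-like receptors; Ly9 binds itself on a neighbouring cell, and Cd48 binds CD244. Ly9 (probe set 93194_at) had a signal of 2091, 1294, 2233 and 1253 in resting cells, 785 and 945 at 45 min and 379 and 87.2 at 180 min. The 3 groups were stepwise lower without overlap, and the 180 min replicates lay far apart. Ly9 fell by 0.91 ± 0.31 (adjusted p = 0.045) at 45 min and fell by 2.82 ± 0.31 (adjusted p = 1.09e-07) at 180 min. Cd48 had 5465, 3039, 4396 and 2023 in resting cells, 2207 and 2182 at 45 min and 853 and 694 at 180 min. It was not called at 45 min (log2 change -0.66 ± 0.24, adjusted p = 0.0636) and fell by 2.11 ± 0.24 (adjusted p = 2.16e-07) at 180 min. Selplg, the selectin ligand PSGL-1, had 4621, 4553, 7777 and 3624 in resting cells, 2026 and 2123 at 45 min and 1285 and 1089.5 at 180 min. No LPS array reached the lowest resting array, and Selplg fell by 1.23 ± 0.19 (adjusted p = 7.05e-05) at 45 min and fell by 2.02 ± 0.19 (adjusted p = 1.15e-08) at 180 min.

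**Figure D2:**
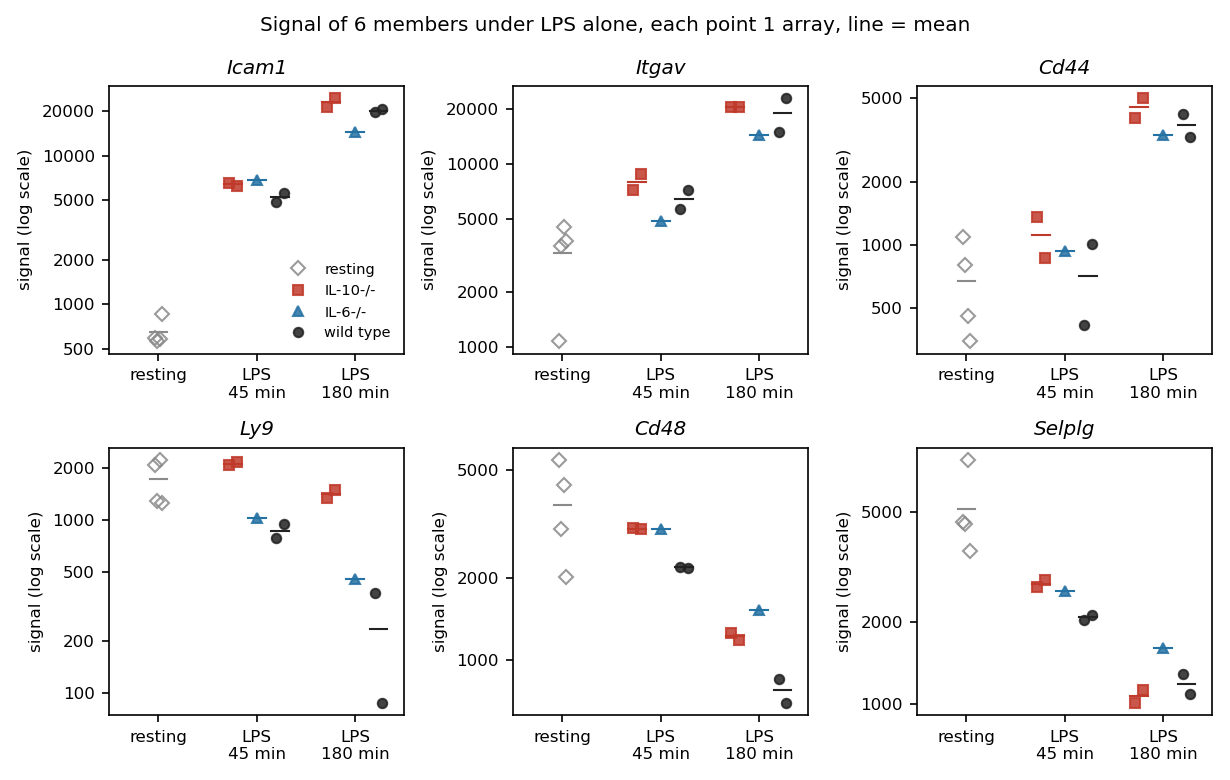
Signal (log axis) of Icam1, Itgav, Cd44, Ly9, Cd48 and Selplg in resting cells and after 45 and 180 min of LPS alone, by genotype; each point is 1 array and each line a group mean. Icam1, Itgav and Cd44 are highest and Ly9, Cd48 and Selplg lowest at 180 min in wild-type cells, and Ly9 is higher in IL-10-/- cells (1342 and 1483) than in wild-type cells (379 and 87.2) at 180 min.

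Tetraspanins split as well. Cd37, a leukocyte tetraspanin, had 2607, 1979, 5166 and 2413 in resting cells, 1421 and 1464 at 45 min and 1097 and 1311 at 180 min. It fell by 0.95 ± 0.26 (adjusted p = 0.0142) at 45 min and fell by 1.21 ± 0.26 (adjusted p = 0.000801) at 180 min, with no LPS array within the resting range. Tspan32, a tetraspanin of blood cells, had 563, 678, 479.5 and 458 in resting cells, 296 and 308 at 45 min and 121 and 184 at 180 min. It fell by 0.74 ± 0.24 (adjusted p = 0.0357) at 45 min and fell by 1.56 ± 0.24 (adjusted p = 1.65e-05) at 180 min, again without overlap. Tspan4 had 1241 and 1164 at 180 min, against 1919, 1738, 2445 and 2424 in resting cells, and fell by 0.79 ± 0.17 (adjusted p = 0.000998). Tspan3 fell by 1.09 ± 0.39 (adjusted p = 0.0333) at 180 min, but it reached the filter through resting arrays alone (227, 88.9, 162 and 210.2), so a fall is part of how it entered the test. Tspan9 was the early riser, with 434, 261, 249 and 480.4 in resting cells, 977 and 875 at 45 min and 609 and 701 at 180 min. It rose by 1.31 ± 0.26 (adjusted p = 0.0011) at 45 min and rose by 0.84 ± 0.26 (adjusted p = 0.015) at 180 min, and the 180 min arrays lay between the resting and the 45 min arrays. Cd82, known as a suppressor of metastasis, had 949, 716, 590.0 and 747 in resting cells, 782 and 962 at 45 min and 1824 and 1310.1 at 180 min and rose by 1.01 ± 0.20 (adjusted p = 0.000331) at 180 min. Its other tested probe set, 99585_at, had a log2 change of -0.32 ± 0.37 (0.545), so the rise of Cd82 rests on 1 probe set, and the mean of its probe sets gave -0.0050.

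Cd9, Cd81, Cd63 and Cd53 were not called against resting. Cd9, which with Cd81 restrains macrophage fusion, had log2 changes of 0.08 ± 0.24, adjusted p = 0.855 at 45 min and -0.01 ± 0.24, adjusted p = 0.975 at 180 min. Cd81 had 0.12 ± 0.21, adjusted p = 0.739 and -0.17 ± 0.21, adjusted p = 0.587. Cd63, a late-endosomal tetraspanin, had 0.35 ± 0.19, adjusted p = 0.212 and 0.30 ± 0.19, adjusted p = 0.237. Cd53 had 0.30 ± 0.17, adjusted p = 0.223 at 45 min and 0.40 ± 0.17, adjusted p = 0.0662 at 180 min. By role, 3 alpha chains, 1 beta chain, 1 tetraspanin and 1 other molecule rose at 45 min, and 0, 1, 2 and 2 fell. At 180 min 3 alpha chains, 1 beta chain, 2 tetraspanins and 3 other molecules rose, and 1, 2, 4 and 3 fell.

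Calls at 45 min rested on both wild-type arrays. Without wild-type LPS 45 min replicate 1, 3 calls of 11 were left (Icam1, Selplg and Tspan9) and the adjusted p was over the threshold for Itga5 (0.058), Itga7 (0.158), Itgav (0.0625), Itgb1 (0.15), Itgb2 (0.0834), Ly9 (0.259), Cd37 (0.0995) and Tspan32 (0.175). Without replicate 2, the same 3 were left, and the others had Itga5 (0.0678), Itga7 (0.186), Itgav (0.186), Itgb1 (0.217), Itgb2 (0.232), Ly9 (0.119), Cd37 (0.0859) and Tspan32 (0.143). Leaving out a resting array ended the call of Itgb1 (0.073), Ly9 (0.091) and Tspan32 (0.0541) for replicate 1, of Itga7 (0.0911) and Tspan32 (0.0834) for replicate 2, of Itga7 (0.0942), Itgb2 (0.0773) and Ly9 (0.105) for replicate 3 and of Itga7 (0.0505) and Itgb1 (0.0992) for replicate 4. Without resting replicate 4, which stood apart, 11 adhesion genes were called at 45 min (9 of them shared with the full fit) and 18 at 180 min (all 18 shared). At 180 min 14 to 20 calls were made when 1 array was left out. Lost there were Itga4 (0.061), Itga5 (0.0668), Itga6 (0.143), Itgb5 (0.0604) and Tspan9 (0.0513) without wild-type LPS 180 min replicate 1, Itgb2 (0.0624), Tspan3 (0.353) and Tspan9 (0.127) without replicate 2, and Tspan3 without resting replicate 1 (0.075) or 4 (0.0641). Stromal markers were higher beside these rises (8 of 9 called higher at both times, median log2 change 2.03 at 45 min and 2.04 at 180 min), and fibroblasts also carry Itgav, Itga5, Itgb1 and Tspan9. Beside the falls, 2 of 5 tested neutrophil and granulocyte markers fell and 0 rose at each time, with a median log2 change of -1.19 at 45 min and -0.55 at 180 min. The summed signal of all 9 was 1334 to 3343 in resting cells, 1075 to 1092 at 45 min and 1178 to 1268 at 180 min. Of 10 macrophage markers 1 rose and 3 fell at 45 min, and 2 rose and 6 fell at 180 min (C1qa, C1qb, Cd68, Csf1r, Fcgr1 and Mertk). The part of these cell types in the comparisons with resting cells was not tested.

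The promoters of the 3 genes with the largest rises at 180 min are shown because NF-kappaB, the transcription factor that TLR4 activates, is known to act through the Icam1 promoter. Each runs from 250 bases before to 50 bases after the annotated start, 5′ to 3′ on the strand of the gene, from RefSeq (GRCm38.p6): Icam1 at chr9:21015690-21015989 on the plus strand, Itgav at chr2:83724147-83724446 on the plus strand and Cd44 at chr2:102901616-102901915 on the minus strand. Capitals mark the short form GGAANTTCC, which reads the same on both strands.
Icam1: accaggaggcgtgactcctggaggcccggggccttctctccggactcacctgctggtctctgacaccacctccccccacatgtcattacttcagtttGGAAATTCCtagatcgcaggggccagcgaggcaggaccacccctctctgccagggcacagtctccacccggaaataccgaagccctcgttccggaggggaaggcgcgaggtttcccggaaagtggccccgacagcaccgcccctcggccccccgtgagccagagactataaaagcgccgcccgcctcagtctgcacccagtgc
Itgav: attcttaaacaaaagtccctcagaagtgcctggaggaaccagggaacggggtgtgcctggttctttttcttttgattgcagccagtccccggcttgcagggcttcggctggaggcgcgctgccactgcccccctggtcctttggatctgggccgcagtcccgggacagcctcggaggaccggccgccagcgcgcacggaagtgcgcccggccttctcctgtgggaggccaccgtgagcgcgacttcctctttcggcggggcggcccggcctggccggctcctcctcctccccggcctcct
Cd44: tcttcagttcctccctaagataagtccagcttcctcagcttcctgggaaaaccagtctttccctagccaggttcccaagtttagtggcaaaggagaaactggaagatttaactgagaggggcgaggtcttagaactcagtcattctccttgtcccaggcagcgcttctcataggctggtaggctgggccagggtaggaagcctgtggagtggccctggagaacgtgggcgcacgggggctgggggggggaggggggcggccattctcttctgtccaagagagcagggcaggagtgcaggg
The 10-base NF-kappaB consensus, searched on both strands, was in 0 of these 3 windows; it was in 2581 of 27025 genes of the promoter table (9.55%) and in 4 of the 35 adhesion genes listed there (11.4%). The short form was chosen after these sequences had been seen. It began 153 bases before the start of Icam1 (position -153) and was absent from the Itgav and Cd44 windows. In the table it was in 289 of 27025 genes (1.07%), and among the adhesion genes in Icam1 and in Cd37, of which the first rose and the other fell with LPS. A match describes the letters of a window, not binding. Not listed in the table were Icam2, Itga6, Itga7, Itgae, Itgal, Itgb2, Itgb3, Itgb4, Ly9, Pecam1 and Selplg.

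Comparing 180 with 45 min of LPS leaves out the resting cells, and with them the difference in stromal markers (0 of 9 called between these times in wild-type cells). In wild-type cells Cd44, Icam1, Itgav, Itgal, Itga4 and Cd82 rose and Ly9, Cd48, Itga6, Selplg and Tspan4 fell between the times, 11 of 38 (28.9%), against 13.9% of all probe sets (6.77% higher and 7.13% lower). In IL-10-/- cells 8 rose (F11r, Itgal, Cd44, Itga4, Icam1, Tspan3, Itgav and Cd82) and 5 fell (Selplg, Cd48, Tspan4, Tspan32 and Itgb5), 34.2%, against 17.1% of all probe sets (6.57% higher and 10.5% lower). In the arrays that also received IL-10, over the 3 genotypes, 9 rose and 9 fell; there 32.8% of all probe sets were called (12.5% higher and 20.2% lower). These 3 comparisons share no array. Called higher in all 3 were Cd44, Cd82, Icam1, Itga4, Itgal and Itgav, which is 6 of the 6 risers of wild-type cells, 6 of the 8 of IL-10-/- cells and 6 of the 9 with IL-10. Called lower in all 3 were Cd48, Selplg and Tspan4 (3 of 5, 3 of 5 and 3 of 9), and of the 19 genes called in any of them 0 were called in opposite directions. The log2 change had 1 sign in all 3 comparisons for 15 of the 19 and both signs for Cd47, Cd53, Itga7 and Tspan3. Such counts across the 3 comparisons are not given here for all probe sets, so they do not set the adhesion genes apart. The median log2 change of the adhesion genes was -0.19 in wild-type and 0.01 in IL-10-/- cells, against -0.14 and 0.03 over all probe sets. Cd82 again rests on its brightest probe set: with the mean of its probe sets the wild-type value was -0.13.

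Itgal, the LFA-1 alpha chain, had its change between the LPS times. In IL-10-/- cells its signal was 1083 and 1275 at 180 min, against 203 and 228 at 45 min. Wild-type cells had 968 and 666 at 180 min, against 270.0 and 306 at 45 min. The times did not overlap in either genotype. Itgal rose by 2.21 ± 0.44 (adjusted p = 0.000807) in IL-10-/- cells, rose by 1.34 ± 0.44 (adjusted p = 0.0435) in wild-type cells and rose by 1.67 ± 0.25 (adjusted p = 1.2e-05) with IL-10. Its ligand Icam1 rose by 1.82 ± 0.21 (adjusted p = 6.11e-07) in IL-10-/- cells, rose by 1.93 ± 0.21 (adjusted p = 2.19e-07) in wild-type cells and rose by 1.25 ± 0.12 (adjusted p = 8.07e-09) with IL-10. Itga4 rose by 1.85 ± 0.30 (adjusted p = 8.34e-05) in IL-10-/- cells, with 689 and 729 at 180 min, against 170.2 and 152 at 45 min. It rose by 1.24 ± 0.30 (adjusted p = 0.00566) in wild-type cells and rose by 0.80 ± 0.17 (adjusted p = 0.000796) with IL-10. Cd44 rose by 2.00 ± 0.40 (adjusted p = 0.000878) in IL-10-/- cells, rose by 2.42 ± 0.40 (adjusted p = 0.000117) in wild-type cells and rose by 1.73 ± 0.23 (adjusted p = 1.95e-06) with IL-10.

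Cd48 was lower at 180 than at 45 min in each comparison. Its signal in IL-10-/- cells was 1259 and 1187 at 180 min, against 3052 and 3030.5 at 45 min. It fell by 1.28 ± 0.28 (adjusted p = 0.00191) in IL-10-/- cells, fell by 1.45 ± 0.28 (adjusted p = 0.00062) in wild-type cells and fell by 1.44 ± 0.16 (adjusted p = 1.14e-07) with IL-10. Selplg fell by 1.32 ± 0.22 (adjusted p = 0.000128) in IL-10-/- cells, fell by 0.78 ± 0.22 (adjusted p = 0.0184) in wild-type cells and fell by 1.00 ± 0.13 (adjusted p = 1.02e-06) with IL-10. Tspan4 had 731 and 931 at 180 min, against 1794 and 2292 at 45 min, in IL-10-/- cells. It fell by 1.25 ± 0.20 (adjusted p = 7.81e-05) there, fell by 0.66 ± 0.20 (adjusted p = 0.0295) in wild-type cells and fell by 1.06 ± 0.12 (adjusted p = 8.94e-08) with IL-10. Itgb2 was not called between the times: its log2 change was -0.75 ± 0.26, adjusted p = 0.0517 in IL-10-/- cells and -0.32 ± 0.26, adjusted p = 0.502 in wild-type cells. Itgam had -0.01 ± 0.55, adjusted p = 0.992 and -0.42 ± 0.55, adjusted p = 0.712, Itgax 0.61 ± 0.27, adjusted p = 0.136 and -0.57 ± 0.27, adjusted p = 0.196. Nor were the other chains and tetraspanins followed throughout. In IL-10-/- cells the log2 changes, with adjusted p in parentheses, were Itga5 0.42 ± 0.40 (0.528), Itgb1 0.06 ± 0.19 (0.875), Itgb7 0.17 ± 0.48 (0.853), Cd9 -0.27 ± 0.27 (0.551), Cd63 -0.17 ± 0.21 (0.648) and Cd81 -0.44 ± 0.24 (0.244). In wild-type cells they were Itga5 0.02 ± 0.40 (0.987), Itgb1 0.32 ± 0.19 (0.305), Itgb7 -0.44 ± 0.48 (0.632), Cd9 -0.09 ± 0.27 (0.878), Cd63 -0.05 ± 0.21 (0.919) and Cd81 -0.29 ± 0.24 (0.505).

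Beside those called in all 3, the comparison with IL-10 called Cd47, F11r and Cd53 higher and Cd9, Itga6, Itga7, Ly9, Tspan32 and Itgb5 lower. In it F11r rose by 1.06 ± 0.21 (adjusted p = 0.000279), Cd47 rose by 0.48 ± 0.13 (adjusted p = 0.00762) and Cd53 rose by 0.43 ± 0.11 (adjusted p = 0.00349). Tspan32 fell by 1.01 ± 0.16 (adjusted p = 1.96e-05), Itga6 fell by 0.76 ± 0.17 (adjusted p = 0.000927), Ly9 fell by 0.74 ± 0.21 (adjusted p = 0.00677) and Itgb5 fell by 0.48 ± 0.12 (adjusted p = 0.0024). Itga7 fell by 0.68 ± 0.22 (adjusted p = 0.0207) and Cd9 fell by 0.47 ± 0.16 (adjusted p = 0.0243); Itga7 lost its call in 5 and Cd9 in 6 of 12 fits without 1 array (adjusted p up to 0.0988 and 0.114). In wild-type cells 4 to 7 calls were made when 1 array was left out. Without LPS 180 min replicate 1, lost were Itga4 (0.078), Itga6 (0.189), Itgal (0.259), Cd82 (0.246) and Tspan4 (0.0865); without replicate 2, Itgal (0.072), Itgav (0.118), Selplg (0.145) and Tspan4 (0.144). Without LPS 45 min replicate 1, lost were Itga4 (0.0941), Itga6 (0.131), Itgal (0.185), Itgav (0.0925), Selplg (0.0735), Cd82 (0.185) and Tspan4 (0.158); without replicate 2, Itga6 (0.0533), Itgal (0.119), Selplg (0.1) and Tspan4 (0.0885). Cd44, Icam1, Cd48 and Ly9 kept their calls in all 4 fits. In IL-10-/- cells 9 to 11 calls were made, and Itgav and Tspan3 lost theirs in each fit (adjusted p up to 0.115 and 0.166). Cd82 was not called there without LPS 180 min replicate 2 (0.132), LPS 45 min replicate 1 (0.0545) or replicate 2 (0.0702). Tspan32 was not called without replicate 1 of 180 min (0.136) or of 45 min (0.0581), and Itgb5 without replicate 2 of 180 min (0.0652) or of 45 min (0.0851).

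**Figure D3:**
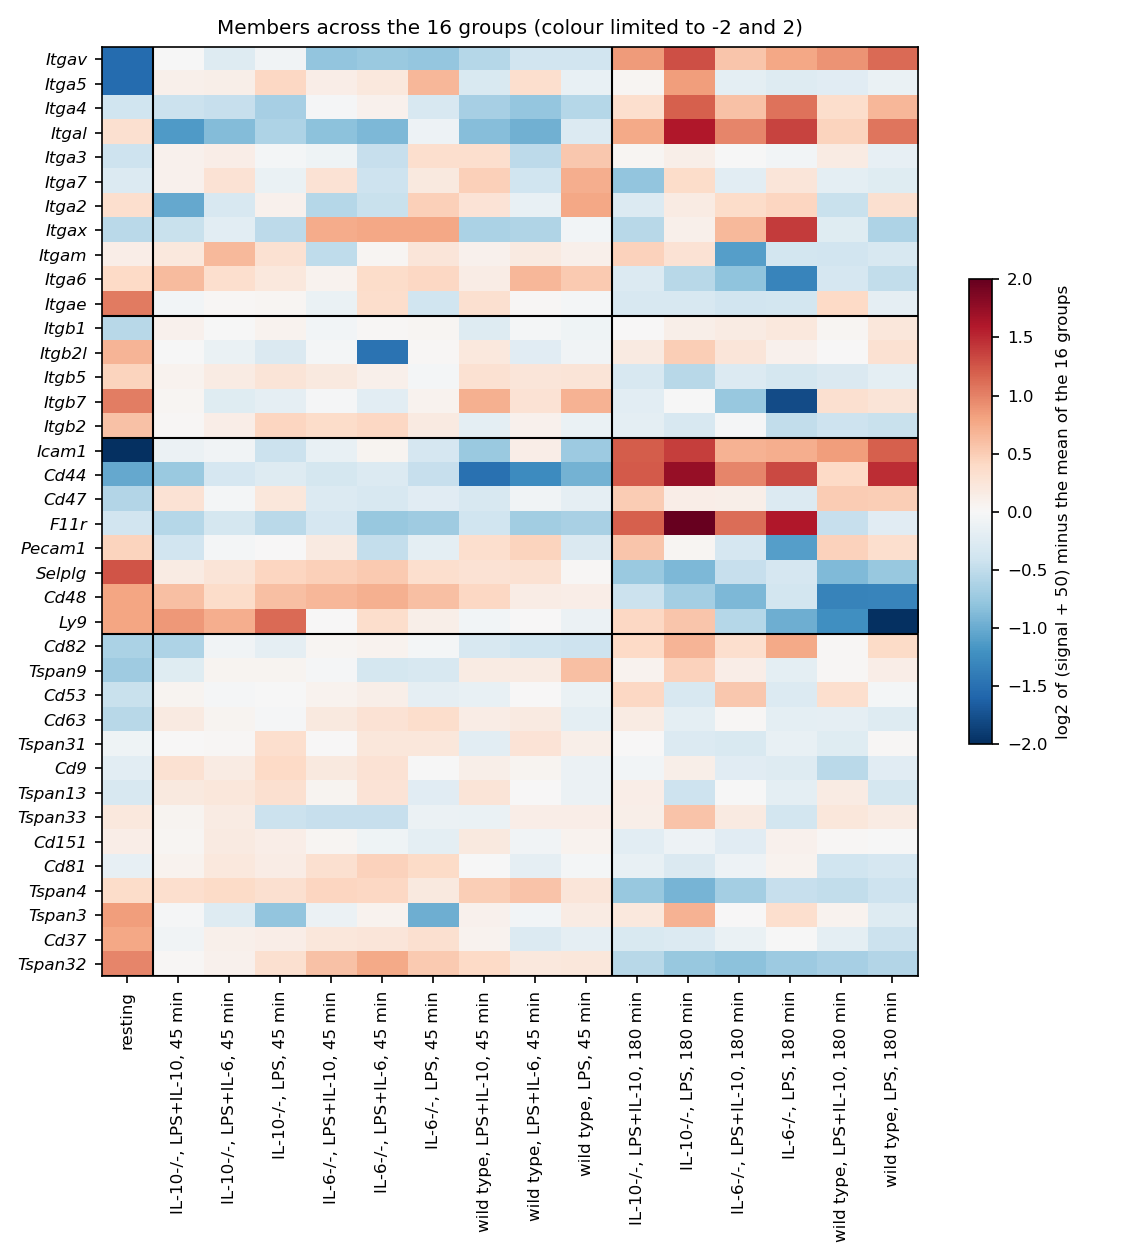
Mean log2 of (signal + 50) of each of the 38 adhesion genes in each of the 16 groups, minus the gene's mean over the groups (colour limited to -2 and 2); rows are grouped as alpha chains, beta chains, other adhesion molecules and tetraspanins, and columns run from resting through 45 min to 180 min. The right block (180 min) is high for Icam1, Cd44, Itgav, Itga4 and Itgal and low for Cd48, Selplg and Tspan4 in every genotype. Of the 38 genes, 11 have their highest group mean in resting cells, 14 in a 45 min group and 13 in a 180 min group. This split is not given here for all probe sets, so it does not set the adhesion genes apart.

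IL-10 given with LPS moved few probe sets of any kind, and few adhesion genes among them. At 45 min, as the mean of the 3 genotypes, limma called 0 of 38 (of all probe sets 1.03% were called, 0.693% higher and 0.34% lower), and 2 had an unadjusted p under 0.05: Itga2 (-0.88 ± 0.27, adjusted p = 0.199) and Itgal (-0.61 ± 0.27, adjusted p = 0.957), both with lower values. The share of all probe sets at this unadjusted level is not given, here or for later comparisons. Such counts therefore do not set the adhesion genes apart. Itgam, Itgb2, Itgax, Itga4, Itga5, Itgb1, Itgb7, Icam1, Cd44, Cd9, Cd63 and Cd81 had log2 changes between -0.33 (Itga5) and 0.16 (Icam1), the lowest adjusted p being 1. At 180 min it called 1 of 38 (2.63%), the tetraspanin Cd53, against 3.82% of all probe sets (2.04% higher and 1.78% lower). Cd53, found on most leukocytes, had a signal of 15871 and 14795 with LPS and IL-10, against 9690.4 and 8614 with LPS, in IL-10-/- cells. In IL-6-/- cells it had 17492 and 15822 with IL-10, against 9515 on the lone LPS array. Wild-type cells had 16661 and 12652 with IL-10, against 12131 and 10311 with LPS. All arrays with IL-10 lay above those without it in each genotype. Cd53 rose by 0.64 ± 0.12 (adjusted p = 0.00131) as the mean of the genotypes, and the call held in 10 of 10 fits without 1 array. By genotype the log2 change was 0.74 ± 0.19, adjusted p = 0.0254 in IL-10-/- cells, 0.80 ± 0.24, adjusted p = 0.235 in IL-6-/- cells and 0.38 ± 0.19, adjusted p = 0.845 in wild-type cells. In IL-10-/- cells by themselves 3.54% of all probe sets were called (2.27% higher and 1.26% lower), and Cd53 lost its call in each of 4 fits without 1 array (adjusted p 0.0784 without LPS replicate 1, 0.268 without LPS replicate 2, 0.227 without LPS plus IL-10 replicate 1 and 0.114 without LPS plus IL-10 replicate 2).

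Another 6 adhesion genes had an unadjusted p under 0.05 at 180 min, all with lower values with IL-10, and none of them passed the adjustment: Itga4 (-0.56 ± 0.19, adjusted p = 0.118), Cd44 (-0.65 ± 0.25, adjusted p = 0.238), F11r (-0.57 ± 0.22, adjusted p = 0.255), Cd82 (-0.35 ± 0.15, adjusted p = 0.297), Itgal (-0.61 ± 0.27, adjusted p = 0.381) and Itga7 (-0.52 ± 0.24, adjusted p = 0.407). How many of all probe sets lay at this level, and in which direction, is not given here. The shared direction is therefore not read as a lowering of the family. Of these genes, 4 were also called higher at 180 than at 45 min in all 3 comparisons of time. Apart from the lone IL-6-/- LPS array, the 180 min arrays used here also enter those comparisons. The overlap is therefore not independent of them. Itga4 had 333 and 410.2 with IL-10, against 689 and 729 with LPS, in IL-10-/- cells. In IL-6-/- cells it had 463 and 434, against 659, and in wild-type cells 382 and 364, against 551 and 416. Its arrays with IL-10 lay below those without in each genotype; the other tested Itga4 probe set passed, with -0.65 ± 0.18 (adjusted p = 0.0462). Icam1 did not pass (-0.19 ± 0.13, adjusted p = 0.739), nor did Itgav (-0.30 ± 0.24, adjusted p = 0.822). Itgb2 had 0.21 ± 0.16, adjusted p = 0.812, Itgam -0.21 ± 0.35, adjusted p = 0.974 and Itgax -0.34 ± 0.17, adjusted p = 0.495. Itga5 had -0.27 ± 0.25, adjusted p = 0.869, Itgb1 -0.12 ± 0.12, adjusted p = 0.888 and Itgb7 0.29 ± 0.30, adjusted p = 0.901. The tetraspanins Cd9, Cd63 and Cd81 had -0.15 ± 0.17, adjusted p = 0.917, 0.22 ± 0.13, adjusted p = 0.651 and -0.02 ± 0.15, adjusted p = 0.998. The median log2 change was -0.05 for the adhesion genes and -0.01 for all probe sets.

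The effect of IL-10 at 180 min was set between genotypes, IL-10-/- minus wild type. Limma called 0 of 38 adhesion genes (of all probe sets 0.559%, with 0.438% higher and 0.122% lower), and 2 had an unadjusted p under 0.05. Each genotype had 2 arrays in each group. Beside the rise of Cd53, the summed signal of 9 of 9 neutrophil and granulocyte markers at 180 min was 1875 to 3944 with LPS and IL-10, against 1178 to 1356 with LPS. Of the 5 tested, only S100a8 rose (log2 change 1.91 ± 0.27), and its highest signal on any array was 3022. The other 4 were not called: Mmp8 (0.93 ± 0.30), Camp (0.15 ± 0.23), S100a9 (0.11 ± 0.37) and Elane (-0.25 ± 0.23). The defining gene Ly6g stayed at or under 127 on every array. The part of granulocytes in the change of Cd53 was not tested.

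**Figure D4:**
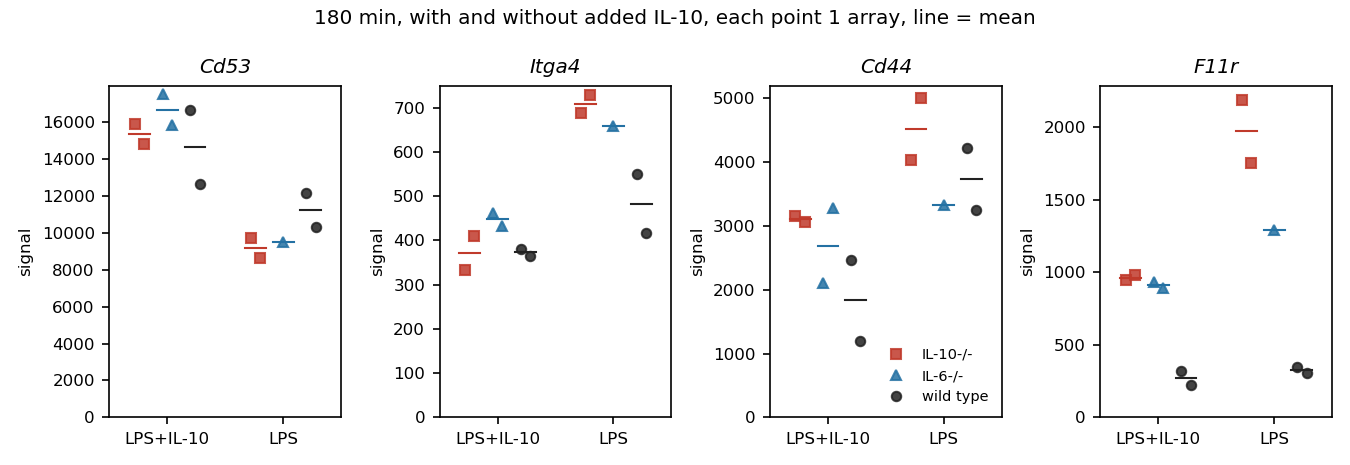
Signal (linear axis from 0) of Cd53, Itga4, Cd44 and F11r at 180 min, with LPS and IL-10 (left of each panel) and with LPS (right), by genotype; each point is 1 array and each line a group mean. Cd53 is higher with IL-10 in each genotype, at 12652 to 17492, against 8614 to 12131 with LPS; F11r is lowest in wild-type cells with or without IL-10.

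IL-6 given with LPS was tested at 45 min. Limma called 0 of 38 adhesion genes as the mean of the genotypes (of all probe sets 0.547% were called, 0.535% higher and 0.0122% lower), and 5 had an unadjusted p under 0.05. Icam1 came nearest to a call. In IL-10-/- cells its signal was 9219 and 7427 with LPS and IL-6, against 6601 and 6302 with LPS. IL-6-/- cells had 9504 and 8664 with IL-6, against 6913 on the lone LPS array. Wild-type cells had 10669 and 8644 with IL-6, against 4905 and 5642 with LPS. Arrays with IL-6 lay above those without it in each genotype. The log2 change was 0.54 ± 0.13, adjusted p = 0.0656, and it passed with a pseudocount of 200 or a filter at 500. The other 4 (Itga2, Itgb2l, Itga3 and Itgal) had log2 changes between -0.75 and -0.50. Itgam, Itgb2, Itgax, Itga4, Itga5, Itgb1, Itgb7, Cd44, Cd9, Cd63 and Cd81 had log2 changes between -0.25 (Itgb7) and 0.13 (Cd63), the lowest adjusted p being 1.

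The knockouts were compared with wild type under the same stimulus. At 45 min of LPS limma called 0 of 38 adhesion genes between IL-10-/- and wild-type cells (of all probe sets 0.377%, with 0.28% higher and 0.0973% lower), with 4 at an unadjusted p under 0.05, among them Ly9 (1.25 ± 0.36, adjusted p = 0.205). At 180 min it called 2 (5.26%), against 2.87% of all probe sets (1.01% higher and 1.86% lower): Ly9 and F11r, both higher in IL-10-/- cells. Ly9 had 1342 and 1483 in IL-10-/- cells, against 379 and 87.2 in wild-type cells. The groups did not overlap, and the log2 change was 2.59 ± 0.36, adjusted p = 4.32e-05. F11r, the junctional adhesion molecule A that can bind LFA-1, had 2185 and 1755 in IL-10-/- cells, against 348 and 307 in wild-type cells. Here too the groups stood apart, with a log2 change of 2.41 ± 0.36, adjusted p = 0.000136. Both calls held in 4 of 4 fits without 1 array. With IL-10 supplied at 180 min, F11r had 1.66 ± 0.36, adjusted p = 0.0508 and Ly9 1.63 ± 0.36, adjusted p = 0.0523 between the same genotypes, which missed the threshold; 0.219% of all probe sets were called (0.122% higher and 0.0973% lower). The beta 2 and beta 1 chains, their alpha partners Itgam, Itgal, Itgax, Itga4 and Itga5, and Itgb7, Icam1, Cd44, Cd9, Cd63 and Cd81 were not called at 180 min of LPS, with log2 changes between -0.26 (Itgb7) and 0.97 (Itga5), the lowest adjusted p being 0.227.

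The 2 genes differed in when the genotypes parted. Over the 6 arrays of each genotype at 45 min, Ly9 ranged 1519 to 2168, median 1820.2, in IL-10-/- cells, against 785 to 1012, median 931, in wild-type cells. Over the 4 arrays at 180 min it ranged 1137 to 1483, median 1374, in IL-10-/- cells, against 87.2 to 392, median 368, in wild-type cells. The genotypes did not overlap for Ly9 at either time. F11r at 45 min ranged 204 to 304, median 282, in IL-10-/- cells, against 180.1 to 311, median 258, in wild-type cells, and the ranges overlapped. At 180 min it ranged 944 to 2185, median 1369, in IL-10-/- cells, against 226 to 348, median 314, in wild-type cells, with no overlap. The change of F11r between 45 and 180 min was larger in IL-10-/- than in wild-type cells by 2.31 ± 0.51, adjusted p = 0.0226. Of all probe sets 1.12% were called in that difference of changes (0.353% higher and 0.766% lower), and F11r was the only adhesion gene among them. The call did not hold in 7 of 8 fits without 1 array: the adjusted p was 0.118 without wild-type LPS 45 min replicate 2, 0.0523 without wild-type LPS 180 min replicate 1, 0.106 without wild-type LPS 180 min replicate 2, 0.0581 without IL-10-/- LPS 45 min replicate 1, 0.124 without IL-10-/- LPS 45 min replicate 2, 0.116 without IL-10-/- LPS 180 min replicate 1 and 0.0554 without IL-10-/- LPS 180 min replicate 2. Ly9, Cd48 and F11r lie close together on chromosome 1, the chromosome of Il10: 1 protein-coding gene lies between Cd48 and Ly9, 3 between F11r and Ly9 and 5 between Cd48 and F11r. Their distance from Il10 is not given here, and the part of this position was not tested. Over the stimulated arms, Cd48 and F11r were also called higher in IL-6-/- than in wild-type cells, while Ly9 was not called.

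**Figure D5:**
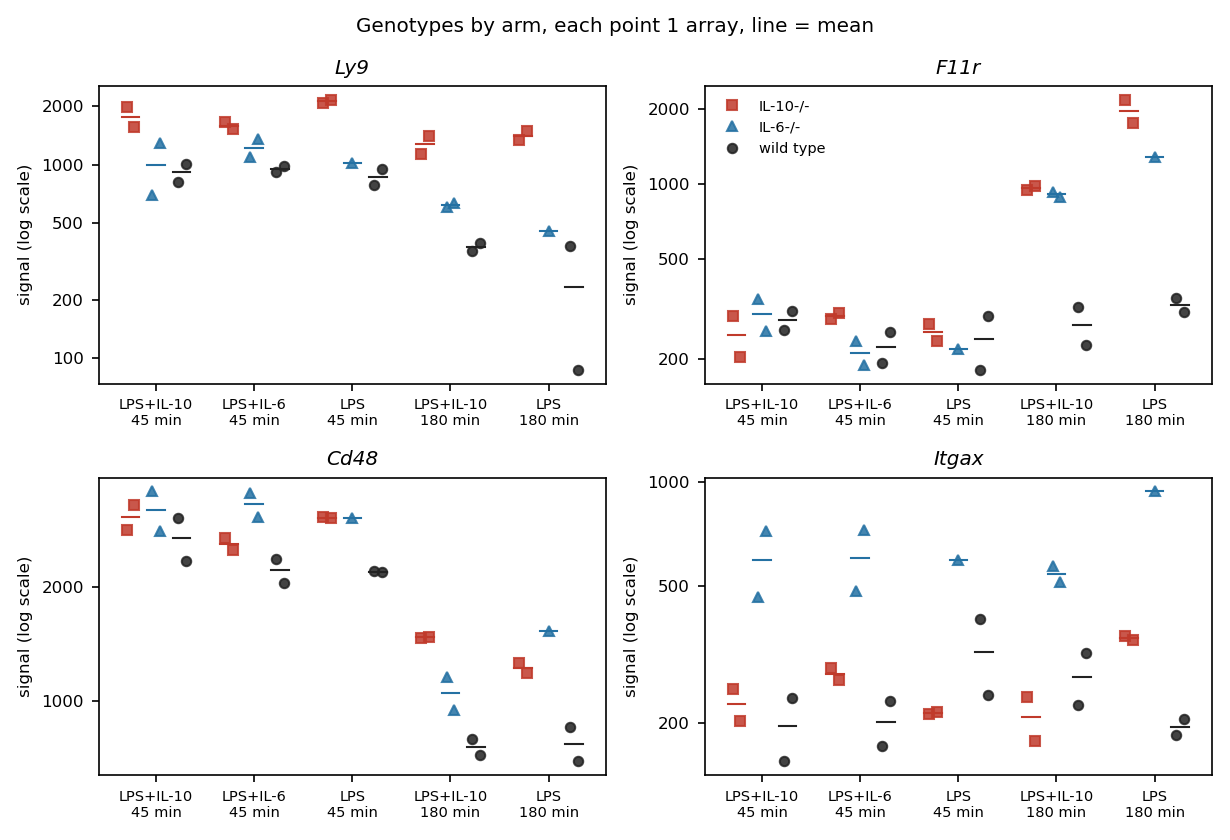
Signal (log axis) of Ly9, F11r, Cd48 and Itgax in the 5 stimulated arms, by genotype; each point is 1 array and each line a group mean. IL-10-/- cells are highest for Ly9 in each arm, F11r parts from wild type at 180 min in both knockouts, and Itgax is highest in IL-6-/- cells in each arm.

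As the mean over the 5 stimulated arms, a comparison added after the values had been seen, 4 adhesion genes were higher in IL-10-/- than in wild-type cells (10.5% of 38), against 3.53% of all probe sets (1.95% higher and 1.58% lower): Ly9 (1.42 ± 0.16, adjusted p = 1.78e-06), F11r (0.87 ± 0.16, adjusted p = 0.00154), Cd44 (0.70 ± 0.18, adjusted p = 0.0272) and Cd48 (0.49 ± 0.12, adjusted p = 0.0269). Same-numbered arrays of a genotype were positively correlated across arms, and the labels do not say whether they share a culture. The fit treats arrays as independent, so p-values over the 5 arms may be too small for both knockouts. Cd44 was not called in 12 and Cd48 in 11 of 20 fits without 1 array (adjusted p up to 0.086 and 0.0717), while Ly9 and F11r were called in all 20. Neither Cd44 nor Cd48 was called, leaving 2 genes, without wild-type LPS 180 min replicate 2, wild-type LPS plus IL-10 180 min replicate 2, IL-10-/- LPS 45 min replicate 1, IL-10-/- LPS plus IL-10 180 min replicate 1 or 2, or IL-10-/- LPS plus IL-6 45 min replicate 1. Between IL-6-/- and wild-type cells over the same arms 5 were called (13.2%), against 3.72% of all probe sets (1.78% higher and 1.95% lower). Itgax, the CD11c chain of CR4 and a marker of dendritic cells and some macrophages, rose by 1.30 ± 0.13 (adjusted p = 9.81e-07) in IL-6-/- cells. F11r had 0.67 ± 0.18, adjusted p = 0.0324, Cd48 0.53 ± 0.14, adjusted p = 0.0267 and Cd81 0.42 ± 0.12, adjusted p = 0.0488; Itgb7 fell by 1.00 ± 0.24 (adjusted p = 0.0149). In 16 fits without 1 array, Itgax and Itgb7 were called in all, and the call was lost in 7 for Cd48, 9 for F11r and 15 for Cd81 (adjusted p up to 0.0611, 0.071 and 0.108). The count was 2 without wild-type LPS 180 min replicate 2, wild-type LPS plus IL-10 180 min replicate 2, or replicate 1 of any of the 3 IL-6-/- groups with IL-10 or IL-6. It was 3 without replicate 1 of wild-type LPS, LPS plus IL-10 or LPS plus IL-6 at 45 min, replicate 2 of wild-type LPS plus IL-6, or replicate 2 of IL-6-/- LPS plus IL-10 at 180 min.

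Itgax at 45 min ranged 464 to 725, median 594, over 5 IL-6-/- arrays, against 154 to 401, median 233, over 6 wild-type arrays. At 180 min it ranged 512 to 943, median 571, over 3 IL-6-/- arrays, against 184 to 319.7, median 215, over 4 wild-type arrays. No IL-6-/- array fell within the wild-type range at either time. With LPS alone at 180 min, Itgax was 943 on the lone IL-6-/- array, against 184 and 205 in wild-type cells, a log2 change of 2.02 ± 0.34, adjusted p = 0.00492; the lone array was assumed to vary like those of the other groups, and 0.182% of all probe sets were called (0.0365% higher and 0.146% lower). Without wild-type LPS 180 min replicate 1 its adjusted p was 0.0509. At 45 min of LPS limma called 0 adhesion genes between these genotypes, with 0% of all probe sets called in either direction and 4 of 38 at an unadjusted p under 0.05. Itgam, its neighbour on chromosome 7 with 0 protein-coding genes between them, had -0.27 ± 0.27, adjusted p = 0.685 over the 5 arms, and their partner Itgb2 0.31 ± 0.13, adjusted p = 0.226. Of the dendritic-cell markers, 0 of 4 tested were called between these genotypes. Beside these genotype values, the summed stromal signal was 7090 to 7848 in IL-6-/-, 10050 to 13680 in IL-10-/- and 9080 to 11500 in wild-type cells over the stimulated arrays, with 4 of 9 markers lower in IL-6-/- and 1 of 9 higher in IL-10-/- than in wild-type cells. Of 10 macrophage markers, 4 were higher and 0 lower in IL-10-/- cells (Adgre1, C1qa, C1qb and Msr1). In IL-6-/- cells 3 were higher and 0 lower (C1qa, C1qb and Msr1). Endothelial Vwf was lower in IL-10-/- cells (-0.98 ± 0.19). The part of these cell types in the genotype values was not tested.

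Proteins that link integrins to actin or switch them on were covered by 24 of 32 listed genes, 21 of them tested. With LPS for 180 min, 7 rose, 4 fell and 10 were not called relative to resting cells, against 33.8% of all probe sets called. At 45 min 4 rose and 2 fell, against 16.7% of all probe sets. Genes said to rise or fall here and among the ligands, tetraspanin partners and further adhesion genes passed the same threshold in limma over all probe sets. Vcl (vinculin) had a log2 change of 2.88 ± 0.20, Lims1 of 1.80 ± 0.19, Vasp of 1.49 ± 0.18 and Actn1 (alpha-actinin 1) of 1.10 ± 0.19. Lower were Fermt3 (-0.88 ± 0.19), the kindlin of blood cells, Ilk (-0.75 ± 0.17), Cyth1 (-1.42 ± 0.44) and Itgb1bp1 (-0.88 ± 0.22). The median log2 change of this list was 0.28, against -0.09 over all probe sets. Vcl was higher by 2.36 ± 0.20 already at 45 min, and its change between 45 and 180 min was not called (0.52 ± 0.23). These and the later comparisons with resting cells carry the differences in growth medium and stromal markers given above, whose part was not tested. Between 180 and 45 min in wild-type cells, Lims1 (1.60 ± 0.22), Vasp (1.52 ± 0.21), Vav1 (0.97 ± 0.28) and Apbb1ip (0.87 ± 0.29) rose and 0 fell. Of all probe sets 13.9% were called there, and 17.1% in IL-10-/- cells. In IL-10-/- cells Lims1 (1.48 ± 0.22), Vasp (1.36 ± 0.21) and Apbb1ip (1.08 ± 0.29) rose too. Vav1 fell in them (-0.99 ± 0.28), as did Cyth1 (-2.18 ± 0.51), Fermt3 (-0.96 ± 0.22) and Rap1a (-0.81 ± 0.24). In the arrays that also received IL-10, Vav1 rose (1.20 ± 0.16). IL-10 at 180 min raised Vav1 (1.13 ± 0.18) and lowered Apbb1ip, the RIAM adaptor that brings talin to integrins (-0.73 ± 0.18). At 45 min IL-10 lowered Vasp (-0.60 ± 0.13). These values average the genotypes. The change of Vav1 with IL-10 at 180 min was larger in IL-10-/- than in wild-type cells by 2.03 ± 0.40 (adjusted p = 0.0106, limma). In that difference 0.559% of all probe sets were called.

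Ligands and counter-receptors of these molecules were covered by 16 of 22 listed genes, 12 tested. With LPS for 180 min 8 rose and 0 fell, against 14.4% of all probe sets called higher and 19.4% lower, with a median log2 change of 1.24. At 45 min 5 rose and 0 fell, against 9% higher and 7.75% lower, with a median of 0.76, against 0.03 over all probe sets. Vcam1, the ligand of Itga4, had 3.78 ± 0.30; Fn1 (fibronectin), the ligand of Itga5, 2.46 ± 0.23; and Plaur, the urokinase receptor that associates with integrins, 2.94 ± 0.16. The selectins that bind Selplg rose while Selplg fell: Selp had 4.44 ± 0.28 and Sele 2.86 ± 0.33. Between 45 and 180 min in wild-type cells, without the resting cells, Vcam1 (3.03 ± 0.35), Plaur (1.05 ± 0.18), Selp (4.37 ± 0.32) and Sele (1.46 ± 0.38) rose. Fn1 had 2.78 ± 0.23 at 45 min against resting cells and was not called between the times (-0.32 ± 0.26). The part of stromal cells and growth medium in its change was not tested. IL-10 at 180 min raised Selp (4.06 ± 0.20) and lowered Vcam1 (-1.57 ± 0.22) and Plaur (-0.65 ± 0.11), averaged over genotypes. The rise of Selp was larger in IL-10-/- than in wild-type cells by 3.89 ± 0.46 (adjusted p = 1.54e-05, limma). Selp also rose with IL-10 at 45 min (3.94 ± 0.20) and with IL-6 at 45 min (2.52 ± 0.20). Sele rose with IL-6 at 45 min too (1.01 ± 0.24). At 180 min of LPS, Selp was lower in IL-10-/- than in wild-type cells (-4.32 ± 0.32). Vcam1 (1.82 ± 0.35) and Plaur (0.70 ± 0.18) were higher there, and Plaur was also higher at 45 min of LPS (0.82 ± 0.18).

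Proteins that tetraspanins gather were covered by 10 of 13 listed genes, 7 tested, of which 1 rose and 2 fell with LPS for 180 min, against 33.8% of all probe sets. Hbegf, a growth factor whose precursor binds CD9, rose (1.29 ± 0.26), and Igsf8, a partner of CD9 and CD81, fell (-0.63 ± 0.23). Emb, an immunoglobulin-family partner of transporters, fell (-0.76 ± 0.20). IL-10 at 180 min lowered Igsf8 (-0.67 ± 0.17) and raised Emb (0.55 ± 0.14). Of 12 further SLAM and leukocyte adhesion genes, 8 were on the array and 5 tested. All probe sets had 16.7% called at 45 min and 33.8% at 180 min; of the 5, 3 rose and 1 fell at 45 min, and 0 rose and 1 fell at 180 min, Cd99 (-0.90 ± 0.23), which takes part in leukocyte passage between endothelial cells.

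Adhesion genes without a call in any of the 28 comparisons numbered 11 of the 38 tested: Itga2, Itga3, Itgae, Itgam, Itgb2l, Pecam1, Cd63, Cd151, Tspan13, Tspan31 and Tspan33. The share of all probe sets without any call is not given here. Cd151, which binds laminin-receptor integrins, had a highest group mean 1.37 times its lowest, Tspan31 one of 1.57 times and Cd63 one of 1.85 times. Itgam, the Mac-1 chain, was bright but scattered, at 615 to 3086, median 2217, over the 28 stimulated arrays, and its lowest resting array was 838. Others were dim: Itgae passed the filter with 2 resting arrays and stayed at or under 98.1 on the stimulated ones. Probe sets whose suffix (_f_at or _s_at) says that they may match other transcripts too are those of Itgav, Itgb1, Itga7, Cd151, Tspan31 and Cd44. No gene with several tested probe sets had them called in opposite directions (0 pairs of gene and comparison).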

How the data were processed

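RNA from macrophages was hybridised to Affymetrix MG-U74Av2 arrays (12488 probe sets, 34 arrays). The authors deposited an intensity per probe set on a linear scale, called signal here; it was computed with MAS5, per the submitters' processing notes, whose version is not given in the sources used here. The 2% trimmed mean of the deposited values lies near 500 on each array, and no further scaling was applied. Array intensities have no counting depth; the number of arrays limits the precision.

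Of 34 arrays, 32 fell into 16 groups by their titles. Symbols came from the platform's annotation; 10855 probe sets carry 1 symbol, 396 several and 1237 are not listed. Control probe sets (66) were left out. Tested were the 8224 probe sets (6070 genes) that reached 200 on 2 or more arrays. Log2 of (signal + 50) was fitted with 1 mean per group in limma 3.58.1 (R 4.3.3), lmFit and eBayes with an intensity trend (16 residual and a median of 7.575 prior degrees of freedom). P-values are 2-sided and adjusted over all 8224 probe sets by Benjamini-Hochberg. The fit was tested on simulated data. The rule for naming genes was every called adhesion gene, plus Itgam, Itgb2, Itgal, Itgax, Itga4, Itga5, Itgb1, Itgb7, Icam1, Cd44, Cd9, Cd63 and Cd81 in the main comparisons. Gene members, lists and promoter motif were chosen with earlier results of these data known.

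Replicate numbers were checked for pairing: deviations of same-numbered arrays were positively correlated in 23 of 23 pairs of groups within a genotype (0.0204 to 0.441). A pairing was taken as given only where every correlation was over 0.1; this held for 3 of 3 pairs in IL-6-/- cells, but for 3 of 10 in IL-10-/- and 7 of 10 in wild-type cells, and the fit has no block. Alternatives were pseudocounts of 10 and 200, no filter or one at 500, quantile normalization, a replicate block, eBayes with no trend, the mean of a gene's probe sets, the mean of 2 genotypes, and leaving out each array. The change with time in arrays with IL-10, both genotype means over 5 arms and the fit without resting replicate 4 were added after values had been seen.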

Additional observations from a re-analysis of the deposited data

Results flagged for a closer look

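Resting replicate 4 lay far above the other 3 resting arrays for 3 of the 46 adhesion genes, by Dixon's test at the 95% level. Itga2 had a signal of 261.5 there, against 107, 126 and 112 on the others; Icam1 had 865.6, against 593, 564 and 583; and Tspan12 had 206.9, against 29.5, 17.0 and 29.6. Chance flags about 1 in 20 groups, and 46 were tested. This is the array with the lowest correlation to the other resting arrays (0.863 to 0.885).

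The change of F11r between 45 and 180 min of LPS differed between genotypes: it was larger in IL-10-/- than in wild-type cells by a log2 of 2.31 (adjusted p = 0.0226, limma; over the threshold in 7 of 8 fits without 1 array).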

How the results depend on the processing

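Over 87 pairs of gene and comparison called, 1397 alternative values gave 1216 with the same direction and call, 179 that lost the call and 2 that turned. Both turned values were of Cd82 with the mean of its probe sets: -0.0050 for LPS 180 min against resting and -0.13 for 180 against 45 min in wild-type cells; its probe sets differ. In 47 pairs the call was kept under every alternative. Leaving out 1 array at a time (30 fits) gave 3 to 11 called adhesion genes for LPS 45 min against resting, 14 to 20 for LPS 180 min, 4 to 7 for 180 against 45 min in wild-type cells and 9 to 11 in IL-10-/- cells, 16 to 18 with IL-10, 2 to 4 for IL-10-/- and 2 to 6 for IL-6-/- against wild type over 5 arms. For IL-10 it gave 0 at 45 min and 1 at 180 min, for IL-6 0, for IL-10-/- against wild type 0 at 45 min and 2 at 180 min, and for the difference of the IL-10 response 0. With a pseudocount of 200 the count was 2 for IL-10 at 180 min (Itga4 added) and 1 for IL-6 at 45 min (Icam1); a filter at 500 gave 1 for IL-6 too. eBayes without a trend gave 2 for IL-10-/- over 5 arms. With the replicate block, 13 were called at LPS 45 min, 20 at LPS 180 min, 12 and 16 for 180 against 45 min in wild-type and IL-10-/- cells, and 1 and 2 for IL-10 and IL-10-/- at 180 min. The cause of these shifts was not tested. Fits that leave 1 array out also have fewer arrays. The lone IL-6-/- LPS arrays could not be left out. Signals near background, such as those of Tspan3 and Itgae, limit what can be told of dim genes.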

Other observations

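The 2 arrays outside the groups were read for the adhesion genes above. The array whose title gives no genotype (LPS 45 min) had a signal of 7168 for Icam1, 4778 for Itgav, 774 for Cd44, 923 for Ly9, 3295 for Cd48, 217 for F11r and 557 for Itgax. The array with a time in its title other than that in its protocol had 17603 for Icam1, 14588 for Itgav, 3076 for Cd44, 653 for Ly9, 1431 for Cd48, 1361 for F11r and 848 for Itgax.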
